A study of Mus musculus with 6 samples.

Results

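H3K27ac regions of RAW264.7 cells lacking Mfp2 were compared with those of the wild-type line. The members are all regions on chromosomes 1 to 19 made by merging the wild-type and Mfp2KO peaks that overlapped by at least 1 bp. There were 34295 of them, against 38990 regions when the peaks of all 3 genotypes of the series were merged in the same way. The wild-type ChIP library had a peak in 28164 of the regions and the Mfp2KO ChIP library in 22412. RAW264.7 is a mouse line described in the labels as macrophage-like. The cells of the 2 groups were of wild-type genotype, titled naive, and of Mfp2 knockout genotype, and both were grown in DMEM with serum, with no stimulus stated. Each group had 1 ChIP library, made with an antibody to H3K27ac, and 1 input library of sheared chromatin without immunoprecipitation, so 4 of the 6 libraries of the series are used here. The labels do not say how the knockout was made or whether the cells were a single clone or a pool, so a difference between these libraries and a difference between genotypes cannot be told apart.

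Acetylation of histone H3 at lysine 27 is placed by the acetyltransferases p300 and CBP and removed by histone deacetylases, and it marks active promoters and active enhancers. Broad, dense stretches of the mark are typical of highly transcribed genes and of enhancer clusters near genes that define a cell type. MFP2, encoded by Hsd17b4, carries out the hydratase and dehydrogenase steps of peroxisomal β-oxidation, which shortens very long-chain fatty acids and releases acetyl-CoA. The title of the series places MFP2 in the nucleus in connection with BMAL1, so the question of the comparison is how the acetylation landscape differs when MFP2 is lacking. Positions are in mouse build mm39. No region was assigned to a gene, since the gene and promoter tables used here are of another build, and for the same reason the Hsd17b4 locus was not used to check the knockout label.

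The libraries were of like depth and differed in how many tags lay in peaks. ChIP depth was 15.8 M tags in both genotypes, and the inputs had 14.9 M tags in wild type and 12.8 M in Mfp2KO. In the authors' headers, 38.71% of wild-type and 57.15% of Mfp2KO ChIP tags lay in peaks, counted over all chromosomes. The estimated fragment length was 236 bp in wild type and 216 bp in Mfp2KO. Tags are given throughout as normalized tag counts, that is per 10 M tags of the library, and tag density as tags per kb of called length, the sequence the authors called as peak. Since each genotype has 1 library, no spread between replicates is known and no difference could be tested, and the 95% intervals below cover counting error only.

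H3K27ac in Mfp2KO covered less sequence with more tags. The 16281 regions called in both genotypes made up 47.5% of all regions (95% Wilson interval 46.9 to 48.0), but accounted for 94.1% of wild-type peak tags and 97.1% of Mfp2KO peak tags. Over these shared regions the called length was 52.4 Mb in wild type and 39.5 Mb in Mfp2KO. The tag sum over the same regions was 3580240 in wild type and 5431962 in Mfp2KO, which gives 68.4 and 137.6 tags per kb. The median shared region went from 2754 bp with 133.3 tags in wild type to 2109 bp with 205.0 tags in Mfp2KO. Its median enrichment over input, a ratio given by the authors for each peak, was 8.37-fold in wild type and 10.84-fold in Mfp2KO.

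Region by region, 8472 of the shared regions, or 52.0%, were both shorter and denser in Mfp2KO, 3842 (23.6%) were shorter and sparser, 3239 (19.9%) longer and denser, and 602 (3.70%) longer and sparser. Called length was shorter in Mfp2KO in 12314 of the 16281 shared regions, or 75.6%, with a median log2 ratio of Mfp2KO to wild type of -0.34 (quartiles -0.72 and -0.01). Tag density was higher in Mfp2KO in 11780 regions, or 72.4%, with a median log2 ratio of 0.64 (quartiles -0.08 and 1.33). Tags, which combine both, were higher in 10157 and lower in 6104 regions, with a median log2 ratio of 0.42 (quartiles -0.58 and 1.19). Depth-scaled input per kb over the same called stretches was also higher in Mfp2KO, in 72.5% of the shared regions and by a median of 0.45 on the log2 scale. Subtracting the input ratio from the density ratio, both on the log2 scale, left a median of 0.23 (quartiles -0.23 and 0.76), with 63.0% of regions above 0. The part of input in the higher density was not tested.

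How many regions stand out depends on the level they are set against. A region is called higher or lower here when its tags differed by at least 2-fold between genotypes after the median log2 ratio of the shared regions, 0.42, was subtracted. By this rule 3055 shared regions were higher in Mfp2KO, which is 18.8% of those compared, and 4092 were lower, which is 25.1%. The higher regions made up 42.7% of the called ones. Without the subtraction 5020 regions were higher (30.8%) and 3033 lower (18.6%), so that 62.3% of the called regions were higher. Scaled instead to the tags in peaks of each list, a shift of 0.56, 2511 were higher (15.4%) and 4477 lower (27.5%), and the share of higher ones was 35.9%. The order of the counts thus reverses between scalings, and below a centred ratio is one taken relative to the median shared region. For density, without any centring, 5986 regions (36.8%) had at least 2-fold higher and 250 (1.54%) at least 2-fold lower tags per kb in Mfp2KO. Density was not counted under the other scalings. Its median log2 ratio was 0.64, against the shift of 0.56 for tags in peaks, so this split also depends on the scale. In called length, 607 regions (3.73%) were at least 2-fold longer and 2594 (15.9%) at least 2-fold shorter in Mfp2KO.

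Shared regions of Mfp2KO fell into a sparse and a dense group, where wild type had a single maximum. In bins of equal width on the log2 scale, wild-type regions were most numerous between 22.6 and 32 tags per kb, with 3172 regions, and fell steadily in number towards higher density. Mfp2KO regions had a first maximum of 2035 regions between 16 and 22.6 tags per kb. Their number fell to 1027 between 45.3 and 64 tags per kb, and then rose to a second maximum of 2283 between 181 and 256 tags per kb. That last bin held 458 wild-type regions. Between 45.3 and 64 tags per kb, where Mfp2KO was at its lowest, wild type had 2110 regions.

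**Figure D1:**
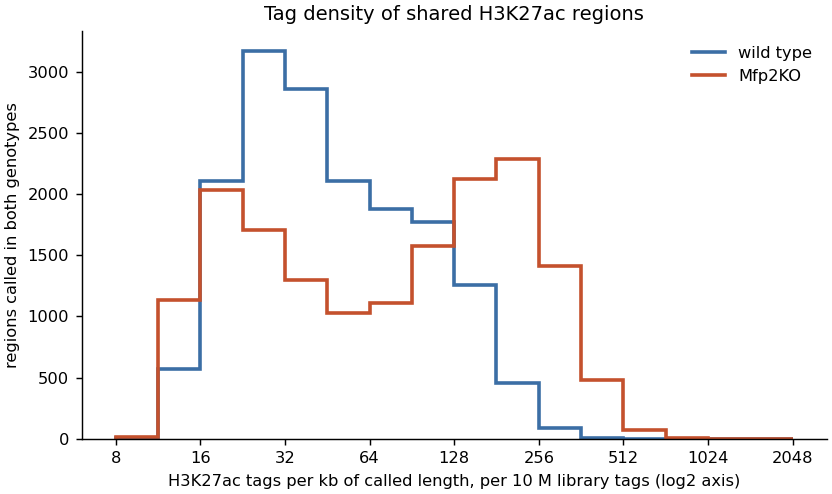
Number of shared H3K27ac regions (y axis) in bins of tags per kb of called length, per 10 M library tags (x axis, log2 scale), for wild type (blue) and Mfp2KO (red). Wild type has 1 maximum, at 22.6 to 32 tags per kb, and Mfp2KO has maxima at 16 to 22.6 and at 181 to 256 tags per kb with a low of 1027 regions between them.

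To see which regions filled these groups, the shared regions were put into 10 groups of equal size by the geometric mean of their wild-type and Mfp2KO tags per kb. In the densest group the median region had 158.6 tags per kb in wild type and 318.7 in Mfp2KO, and 96.3% of its 1628 regions were denser in Mfp2KO. In the sixth group, with 45.0 tags per kb in wild type and 109.5 in Mfp2KO, the median log2 density ratio was 1.31, and in the seventh it was 1.32, the highest of the 10. In the sparsest group the order turned: 18.5 tags per kb in wild type and 15.4 in Mfp2KO, a median log2 ratio of -0.26, although it was 0.26 when the groups were formed from wild-type density alone and -0.01 among regions of like length. The groups just above it had ratios of -0.28 and -0.14, against -0.04 and -0.03 with groups from wild-type density alone and 0.21 and 0.70 among regions of like length. With groups from Mfp2KO density alone the ratio was -0.53 in the sparsest, -0.31 in the second and -0.11 in the third group.

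**Figure D2:**
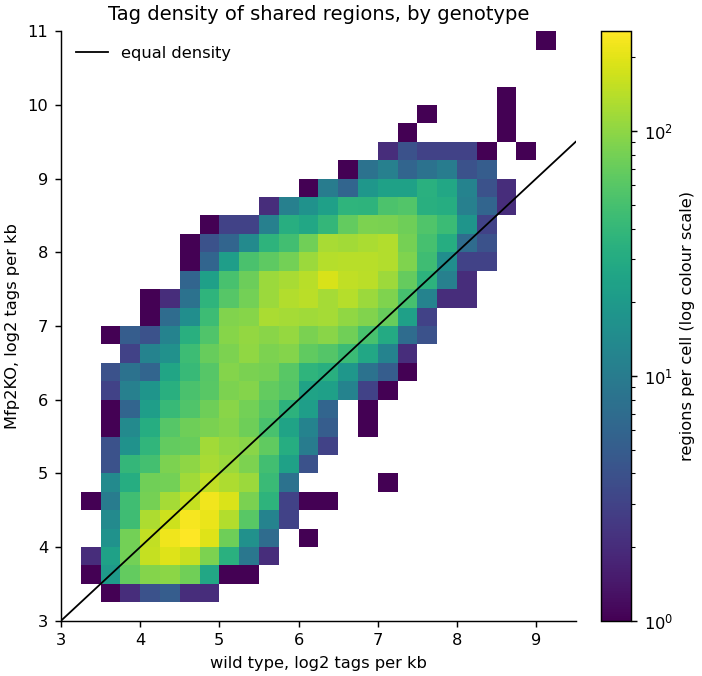
Density of each shared region in wild type (x axis, log2 tags per kb) and Mfp2KO (y axis, log2 tags per kb), with the number of regions per cell as colour on a log scale and the line of equal density. Of 10 groups formed along the x axis, the sparsest lies at a median log2 ratio of 0.26, the second and the third lie about evenly around the line, at -0.04 and -0.03, and the seventh lies furthest above it, at 1.27.

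Higher density in Mfp2KO from the fifth to the tenth group did not depend on how the groups were formed. Formed from the geometric mean, the median log2 density ratios of these groups ran from 0.83 to 1.32. Formed from wild-type density alone they ran from 0.54 to 1.27, and from Mfp2KO density alone from 0.83 to 1.39. Among the 5372 shared regions that had 1 peak in each genotype and a longer called length at most 25% above the shorter, the median ratio of the fifth to the tenth group ran from 0.89 to 1.38. In that set of like lengths 4569 regions, or 85.1%, were denser in Mfp2KO, with a median log2 ratio of 0.89 (quartiles 0.28 and 1.49). Depth-scaled input per kb was higher there too, in 80.8% of the regions and by a median of 0.51. Subtracting the input ratio left a median of 0.38, with 70.5% above 0.

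Input changed along the same axis. Summed over the regions of a group and scaled to 10 M tags, wild-type input went from 2.84 tags per kb in the sparsest to 9.16 in the densest group, and Mfp2KO input from 2.28 to 17.0. The log2 ratio of the summed input per kb therefore went from -0.32 in the sparsest through 0.51 in the sixth to 0.89 in the densest group. With groups formed from wild-type density alone it was above 0 throughout, at 0.63 in the sparsest, 0.33 in the third and 0.82 in the densest group. With groups from Mfp2KO density alone it was -0.61 in the sparsest and 0.92 in the densest. Relative to input, region by region, the density ratio had its highest median in the sixth group, at 0.70, and was 0.08 in the densest, where it was -0.16 with groups formed from wild-type density alone and 0.44 with groups from Mfp2KO density alone. In the densest group the authors' enrichment over input was 18.4-fold in wild type and 19.8-fold in Mfp2KO, whereas in the sixth it was 6.89-fold and 12.2-fold. In groups formed from both genotypes, regions of medium density thus differed most in enrichment. The densest differed in tags per kb and in input per kb by nearly the same factor.

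The tag ratio followed density more steeply than the density ratio did, and in groups formed from both genotypes the ratio of called length was lowest in the sparse groups. In the sparsest group the median called length was 1545 bp in wild type and 649 bp in Mfp2KO, with 28.5 and 10.5 tags, and 68.0% of its regions were lower in Mfp2KO by the 2-fold centred rule. With groups formed from wild-type density alone the pattern at this end was not found. The sparsest group then had a median log2 ratio of -0.26 in length, against -0.95 with groups from both genotypes. In tags the ratio was 0.00, against -1.28, and 35.5% of the regions were lower. With groups from Mfp2KO density alone the pattern in the sparsest group was stronger, at -1.17 in length and -1.75 in tags, with 82.4% lower. What the sparsest group shows thus depends on the grouping. In the sixth group the median lengths were 2589 and 2190 bp with 116 and 269 tags, and 38.0% of the regions were higher. In the densest group 10.6% were higher and 1.04% lower, at median lengths of 3534 and 2804 bp and 584 and 914 tags.

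**Figure D3:**
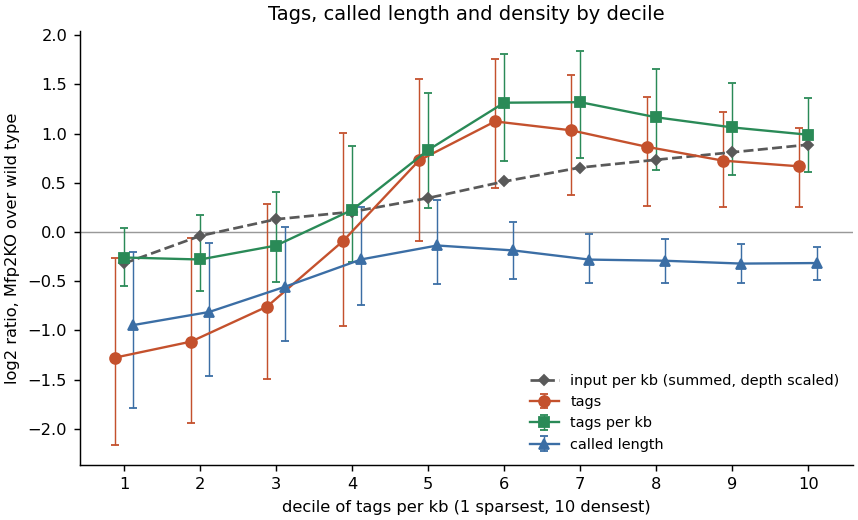
Median log2 ratio of Mfp2KO to wild type (y axis) of tags, tags per kb and called length, with quartiles as bars, and of summed depth-scaled input per kb, in 10 groups of shared regions from sparsest to densest by the geometric mean of both genotypes (x axis). Tags per kb peak in groups 6 and 7 at 1.31 and 1.32, called length is below 0 in every group, and input per kb reaches 0.89 in the densest group.

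The shorter called length came from both ends of a region. Of the 14659 shared regions with 1 peak in each genotype, the Mfp2KO peak lay inside the wild-type peak in 8048, or 54.9%. The reverse was found in 1401, or 9.56%, the peaks were staggered in 5208, and both edges were the same in 2. At the median the left edge of the Mfp2KO peak lay 264 bp (quartiles -34 and 613) and the right edge 257 bp (quartiles -32 and 587) inside the wild-type edge. The centres of the peaks were apart by a median of 231.5 bp. In the densest of 5 equal groups of these regions 71.2% of the Mfp2KO peaks lay inside the wild-type peak, with edges 328 and 305 bp further in and centres 168.5 bp apart. The sparsest of the 5 had edges 336.5 and 325.5 bp further in, 55.1% of peaks inside, and centres 309.75 bp apart.

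Long acetylated domains were the most divided. A single wild-type peak corresponded to 2 or more Mfp2KO peaks in 1159 shared regions (7.12%), and to 3 or more in 194. Several wild-type peaks corresponded to a single Mfp2KO peak in 349 (2.14%). The share of divided regions rose with length, from 0.122% of the 819 regions whose longer called length was at most 1 kb, over 5.33% of those between 3 and 5 kb, to 68.7% of the 351 regions over 10 kb. The median divided region had 6633 bp and 285.3 tags in wild type and 3888 bp and 184.14 tags in Mfp2KO, with 39.0 and 38.6 tags per kb, so its tags were lower while its density was nearly equal. The regions where Mfp2KO joined several wild-type peaks went from 99.1 to 218.6 tags and from 2980 to 3576 bp.

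The tag ratio rose and then fell along the longer called length of a region. Its median on the log2 scale, without centring, was 0.00 in regions of at most 1 kb, 0.53 from 1 to 2 kb, 0.69 from 2 to 3 kb, 0.41 from 3 to 5 kb, 0.00 from 5 to 10 kb and -0.33 over 10 kb. Called length in the classes of 2 to 3 kb, 5 to 10 kb and over 10 kb had median log2 ratios of -0.29, -0.52 and -0.63. Density was above wild type at the median of these 3 classes, at median log2 ratios of 0.87, 0.47 and 0.22. Over the 16281 shared regions, 2115 were called over more than 5 kb in wild type and 1056 in Mfp2KO.

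The 8 shared regions whose called length fell furthest were all single wild-type peaks of 21718 to 44494 bp that corresponded to 2 to 6 peaks in Mfp2KO. The region on chromosome 4 (122759056-122798194) was 1 peak of 39138 bp with 1843.3 tags in wild type, and 6 peaks of 13245 bp in all with 1079.22 tags in Mfp2KO. What remained there was denser, at 81.5 against 47.1 tags per kb. The region on chromosome 2 (116934130-116961062) kept 5551 of 26932 bp and went from 1773 to 913.81 tags, and its density went from 65.8 to 164.6 tags per kb. On chromosome 11 (29810802-29835235) the called length went from 24433 to 3445 bp and the tags from 701.9 to 73.2, a centred log2 ratio of -3.68 (95% counting interval -3.96 to -3.40), with 28.7 and 21.2 tags per kb. The longest wild-type peak, on chromosome 10 (120447077-120491571), went from 44494 to 23522 bp and from 2579.7 to 859.9 tags, and became sparser, at 58.0 and 36.6 tags per kb. In these 4 regions the tags were lower in Mfp2KO whether density was higher, as in the first pair, or lower.

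Neighbouring domains on chromosome 9 were among the 8. The first (47609836-47631554) went from 893.1 tags over 21718 bp to 153.32 tags in 3 peaks over 3371 bp. The second (47638008-47660868) went from 751.0 tags over 22860 bp to 76.38 tags in 6 peaks over 4897 bp, and had the lowest centred log2 ratio of the 8, -3.72 (-3.99 to -3.44). All 8 had lower centred tags, from -3.72 to -1.19, and density ratios on both sides of 0, from -1.07 to 1.32. The lower tags are no separate finding, since the 8 were chosen by called length and tag sums move with it.

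Gains of called length were smaller than losses. The 8 regions that gained most added 4.63 to 6.59 kb, where the 8 that lost most gave up 18.0 to 25.9 kb. On chromosome 10 (79775475-79784404) wild type had 2 peaks of 2096 bp with 62.1 tags and Mfp2KO 1 peak of 8684 bp with 653.7 tags, a centred log2 ratio of 2.97 (2.68 to 3.29). On chromosome 7 (15934008-15945067) a wild-type peak of 5806 bp with 374.9 tags stood against one of 11059 bp with 1423.6 tags. The region on chromosome 8 (89005442-89022105) joined 3 wild-type peaks into 1 and went from 11160 to 16623 bp and from 428.4 to 851.7 tags. All 8 had higher centred tags in Mfp2KO, from 0.36 to 3.995. Tag sums move with called length, by which these 8 were chosen, so this direction is no separate finding.

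The strongest acetylated regions of the shared set held more tags in Mfp2KO in each of the 8 named, which were ranked by the sum over both genotypes. That sum includes the Mfp2KO tags, and 62.4% of all shared regions had more tags in Mfp2KO. The region with most tags over both genotypes, on chromosome 5 (142798967-142810517), had 2195.6 tags over 11550 bp in wild type and 5716.7 over 10618 bp in Mfp2KO. Its density went from 190.1 to 538.4 tags per kb, its enrichment over input from 14.12-fold to 29.43-fold, and its centred log2 ratio was 0.96 (0.90 to 1.02). On chromosome 17 (34335703-34345227) the tags were 2010.4 and 5229.0 over nearly equal lengths of 8733 and 8511 bp. The region on chromosome 8 (85701010-85714734) went from 1740.4 to 5174.5 tags, a centred log2 ratio of 1.15, and the one on chromosome 7 (144488287-144498732) from 1476.9 to 4457.2, a ratio of 1.17, the highest of the 8. The lowest of the 8 was on chromosome 12 (86927408-86947089), where 1 peak of 19681 bp with 2585.4 tags became 3 peaks of 14558 bp with 4210.1 tags, a centred log2 ratio of 0.28. Density was higher in Mfp2KO in all 8, with log2 ratios from 0.87 to 1.95.

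The densest regions were of another kind. A region on chromosome 8 (19833951-19835793), chosen after its values were seen, had the highest density of the shared regions in both genotypes, with 520.7 tags per kb in wild type and 1965 in Mfp2KO. Input was also high there, at 100.1 and 119.4 tags per kb as counted, and enrichment was 7.73-fold and 21.08-fold. By the geometric mean of both genotypes a region on chromosome 17 (6742864-6745513) followed, with 421.6 and 1217 tags per kb and input of 63.9 and 89.9. For comparison, the median shared region had 8.22 input tags per kb in wild type and 9.90 in Mfp2KO. The region on chromosome 3 (88855909-88859440), denser than the latter in wild type at 509.7 tags per kb and at 629 in Mfp2KO, had nearly equal tags, 1746.7 and 1781.3, at 26.62-fold and 21.54-fold enrichment, which put it at -0.39 after centring.

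Restricted to the 10229 shared regions with a mean of at least 100 tags, 2243 (21.9%) were higher and 1065 (10.4%) lower by the centred rule, and the median centred log2 ratio was 0.30. The highest and the lowest of them were regions where the called length itself differed by a large factor. All 12 highest had a wild-type peak of 500 bp, the smallest the authors called, with 7.60 to 14.2 tags, against 192.6 to 402.4 tags in Mfp2KO. The first, on chromosome 7 (3156781-3160839), had 7.60 tags over 500 bp in wild type and 402.4 over 3792 bp in Mfp2KO, a centred log2 ratio of 5.31 (4.49 to 6.27). The tag density there was 15.2 and 106 per kb, and enrichment 4.52-fold and 18.1-fold. This region spanned 4058 bp, so its peaks overlapped by less than 50% of the wild-type peak. With an overlap of at least 50% of the shorter peak required, it was not a shared region. The same holds for the ninth of the 12, on chromosome 1 (180843174-180845585), with 500 and 2110 bp called in a span of 2411 bp.

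The second to the fifth also set a wild-type peak of 500 bp against a longer Mfp2KO peak. On chromosome 5 (134611215-134613204) the tags were 8.23 and 327.0, a centred log2 ratio of 4.89, and the density ratio of 3.32 was the highest of the 12. On chromosome 18 (37938582-37941839) they were 9.18 and 337.1, with a ratio of 4.78 and an enrichment of 5.96-fold in Mfp2KO, the lowest of the 12 in that genotype. On chromosome 7 (24670278-24672339) they were 7.92 and 243.0, and on chromosome 8 (121048515-121051940) 8.23 and 252.2, both with a ratio of 4.52. When peaks within 10 kb were joined, the ratios of 3 of these 5 moved by less than their counting error, while that of the second came to 1.93 and that of the fourth to 0.92. The tenth of the 12, on chromosome 4 (132700873-132704407), then went from 4.22 to -0.26, below 0. Of the others, the sixth, on chromosome 10 (128104960-128107357), came to 0.14, the seventh, on chromosome 2 (154444468-154446599), to 0.83, the eleventh, on chromosome 13 (23606835-23608827), to 1.77 and the twelfth, on chromosome 11 (120428754-120431029), to 0.0073. In all, 7 of the 12 moved by more than their counting error.

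The lowest ratios were found at long wild-type domains of which a short remnant was called in Mfp2KO. The lowest, on chromosome 12 (78964860-78973307), had 274.5 tags over 8345 bp in wild type and 8.56 over 500 bp in Mfp2KO, a centred log2 ratio of -5.42 (-6.26 to -4.61). Its density was 32.9 and 17.1 tags per kb. On chromosome 3 (122132605-122139927) the tags went from 291.6 over 7322 bp to 11.4 over 830 bp, a ratio of -5.10. On chromosome 17 (37608287-37615676) they went from 193.8 over 7389 bp to 8.56 over 629 bp, a ratio of -4.92. The fourth, also on chromosome 17 (45045339-45047934), differed from the rest: a compact wild-type peak of 2519 bp with 324.2 tags, or 128.7 per kb, stood against 15.5 tags over 500 bp, or 31.0 per kb. Its ratio was -4.81 and its log2 density ratio -2.05, the lowest of the 12. On chromosome 2 (135647244-135659387) 277.7 tags over 12143 bp stood against 13.3 over 500 bp, a ratio of -4.81, at a density that was not lower (22.9 and 26.6 tags per kb).

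Joining peaks within 10 kb moved 4 of these first 5 towards 0. The values became -3.24 on chromosome 12, -1.32 on chromosome 3, -1.97 for the first one on chromosome 17 and -3.15 on chromosome 2. The compact region on chromosome 17 (45045339-45047934) stayed within counting error of -4.81.

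Regions called over like lengths in both genotypes showed the density difference apart from the called length, though not apart from input. Of the 4154 such regions with a mean of at least 100 tags, a set formed after the data were seen, 1240 (29.9%) were higher and 70 (1.69%) lower by the centred rule. This split rests on the median of all shared regions, 0.42: centred on their own median of 0.82, 639 of all 5372 regions of like length were higher and 646 lower. Of the 4154 regions, 492 had at least 4-fold higher density in Mfp2KO and 2 at least 2-fold lower density. Among all 10229 shared regions with a mean of at least 100 tags these counts were 1082 and 64. The largest density ratio was on chromosome 6 (100646735-100648739), with 58.9 tags over 1903 bp in wild type and 610.9 over 2004 bp in Mfp2KO, or 31.0 and 304.8 tags per kb. Its log2 density ratio was 3.30, and enrichment was 7.95-fold and 24.86-fold. On chromosome 9 (57037199-57039270) the tags went from 67.1 to 610.3 over 1951 and 1899 bp.

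Enrichment was strongest of the 6 highest in the region on chromosome 5 (65547388-65550039). It had 91.8 tags in wild type and 891 in Mfp2KO, at 7.18-fold and 55.71-fold over input, with 7.84 and 7.73 input tags per kb as counted. Its log2 density ratio was 3.15. In the other 5, input per kb as counted was higher in Mfp2KO, from 5.78 to 15.7 on chromosome 6 (100646735-100648739) and from 9.27 to 10.4 on chromosome 2 (3512662-3515253), for example, although the Mfp2KO input library was the shallower one. In the 6 highest, wild-type density ran from 27.8 to 37.9 and Mfp2KO density from 223.6 to 336.1 tags per kb, so each was sparse in wild type and lay in the dense group of Mfp2KO.

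The lower end of this set was shallow. The lowest log2 density ratio, -1.15, was on chromosome 2 (163428311-163434047), with 323.3 tags over 5310 bp in wild type and 149.2 over 5420 bp in Mfp2KO, at 14.34-fold and 8.32-fold enrichment. The other of the 2 regions at least 2-fold lower, on chromosome 15 (74800048-74805649), went from 318.2 to 131.8 tags and from 13.91-fold to 5.2-fold. In the 6 lowest, wild-type density ran from 45.6 to 60.9 and Mfp2KO density from 24.4 to 28.5 tags per kb.

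**Figure D4:**
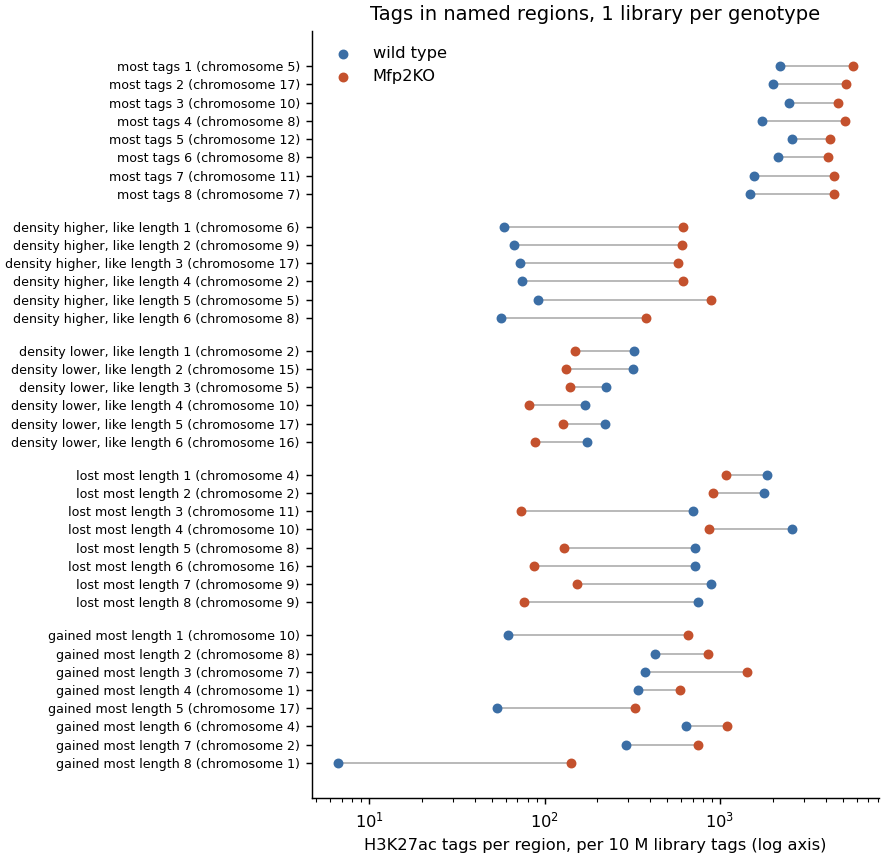
Normalized tags (x axis, log scale, per 10 M library tags) in wild type (blue) and Mfp2KO (red) for the 8 shared regions with most tags, the 6 with the highest and the 6 with the lowest density ratio among regions of like length, and the 8 each that lost and gained most called length in Mfp2KO. All 8 regions with most tags have higher tags in Mfp2KO, from 4141.9 to 5716.7, and all 8 that lost most length have lower tags. Tag sums move with called length, by which the sets of lost and gained length were chosen.

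Regions called in 1 genotype were mostly short and held few tags. Wild type alone had 11883 regions, or 34.6% of all (34.1 to 35.2), and Mfp2KO alone 6131, or 17.9% (17.5 to 18.3). The former had a median of 648 bp and 10.8 tags and accounted for 5.88% of the tags of wild-type peaks. The latter had a median of 628 bp and 13.0 tags and held 2.94% of the tags of Mfp2KO peaks. A length of 500 bp, the smallest called, was found for 40.5% of the wild-type-only and 45.8% of the Mfp2KO-only regions, against 3.29% and 5.76% of the shared regions in the same libraries. The nearest peak of the other genotype lay at a median distance of 7792 bp from a wild-type-only and of 5383 bp from an Mfp2KO-only region. A missing peak says that the authors' limits were not passed there, and tags below these limits were not analysed here.

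The stronger of these regions differed in shape between genotypes. At least 100 tags were found in 158 wild-type-only regions, with a median of 3972 bp and 33.9 tags per kb, and in 288 Mfp2KO-only regions, with a median of 1834 bp and 83.0 tags per kb. Of the 158, 55 were longer than 5 kb and 48 (30.4%) reached 50 tags per kb. Of the 288, 3 were longer than 5 kb and 259 (89.9%) reached 50 tags per kb. The stronger regions of Mfp2KO alone were thus shorter and denser than those of wild type alone. Shared regions went the same way: 2109 bp at 85.4 tags per kb in Mfp2KO and 2754 bp at 41.8 in wild type (medians). Over all regions of 1 genotype the medians were 628 bp at 20.7 tags per kb in Mfp2KO and 648 bp at 15.8 in wild type. Of the shared regions, 60.1% reached 50 tags per kb in Mfp2KO and 42.5% in wild type. Of all 6131 Mfp2KO-only regions 8.37% did, and of all 11883 wild-type-only regions 0.867%. Input in Mfp2KO was 12.4 tags per kb at the median of its 288 regions, against 9.90 over the shared regions in the same library. The wild-type value for its 158 regions was 6.90, against 8.22. Enrichment was under 6-fold in 73 of the 288 and in 47 of the 158.

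Among the regions of wild type alone, the most tags were on chromosome 14 (64378047-64388799), with 391.3 over 10752 bp at 7.50-fold enrichment, where an Mfp2KO peak began or ended 397 bp away. The second, on chromosome 6 (49187158-49193235), had 356.2 tags over 6077 bp at 5.66-fold, 46116 bp from any Mfp2KO peak. The third, on chromosome 3 (148693153-148696335), was the most isolated, with 309.3 tags over 3182 bp at 6.86-fold and no Mfp2KO peak within 2173120 bp. On chromosome 9 (59961090-59974073) 308.1 tags were spread over 12983 bp, or 23.7 per kb. The densest and most enriched of the 10 was on chromosome 2 (18051574-18053755), with 306.2 tags over 2181 bp, or 140.4 per kb, at 13.00-fold, and an Mfp2KO peak 6504 bp away. A region on chromosome 15 (64253183-64255625) resembled it, with 298.6 tags over 2442 bp at 12.32-fold and 38162 bp to the nearest Mfp2KO peak.

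In tags per 10 M library tags, the regions of Mfp2KO alone reached higher values. On chromosome 10 (127452299-127458786) Mfp2KO had 834.6 tags over 6487 bp at 12.51-fold enrichment, 6034 bp from any wild-type peak. On chromosome 11 (119988557-119991874) it had 685.4 tags over 3317 bp, or 206.6 per kb, at 21.17-fold, with 10291 bp to a wild-type peak. Another on chromosome 11 (120603481-120605767) had 549.7 tags at 10.84-fold. All 3 exceeded the 391.3 tags of the strongest region of wild type alone on this scale. The order was not computed after scaling to the tags in peaks, a shift of 0.56 on the log2 scale that lowers the Mfp2KO values.

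The fourth, on chromosome 5 (107871946-107874347), had 507.0 tags at 9.56-fold and no wild-type peak within 22593 bp. The fifth, on chromosome 4 (135869942-135873050), had 495.9 tags at 8.31-fold, and a wild-type peak lay 615 bp away. The most isolated of the 10 was on chromosome 5 (3645162-3647457), with 495.9 tags at 18.42-fold and 48301 bp to a wild-type peak. The most enriched was on chromosome 11 (82654300-82656546), with 462.6 tags at 25.78-fold and 12626 bp to a wild-type peak. The least enriched, on chromosome 7 (37881812-37883417), had 394.2 tags at 4.12-fold, with an input of 76.3 tags per kb against a median of 12.4 in the 288 regions.

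Chromosomes differed little in the tag ratio and more in the share of unshared regions. The median centred log2 ratio was lowest on chromosome 10, at -0.20, and highest on chromosome 7, at 0.25, while the quartiles within each reached from -1.30 to 0.65 and from -0.65 to 0.93. The share of wild-type regions without an Mfp2KO peak went from 36.6% on chromosome 8 (34.1 to 39.1) to 48.0% on chromosome 1 (45.7 to 50.2). The share of Mfp2KO regions without a wild-type peak went from 21.3% on chromosome 3 (18.8 to 23.9) to 30.3% on chromosome 5 (28.1 to 32.6). The log2 ratio of input per kb lay between 0.36 on chromosome 15 and 0.52 on chromosome 13, so no chromosome stood apart in input. Across the 19 chromosomes, which share the same libraries, the median centred ratio had a Spearman coefficient of 0.67 with the median density of their shared regions, -0.75 with the share of wild-type regions without an Mfp2KO peak and -0.01 with the input ratio. Density here is the geometric mean of both genotypes. It holds the Mfp2KO tags of the ratio itself, so the coefficient of 0.67 is no separate finding.

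**Figure D5:**
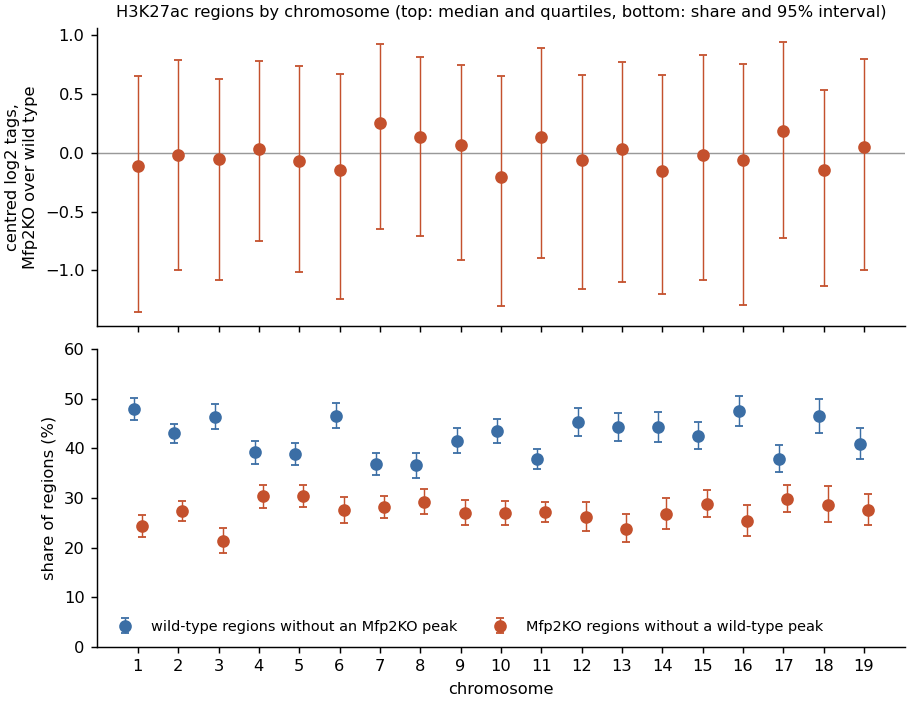
By chromosome (x axis), the median centred log2 tag ratio of shared regions with quartiles (top) and the share of wild-type regions without an Mfp2KO peak and of Mfp2KO regions without a wild-type peak, in percent with 95% Wilson intervals (bottom). Medians lie between -0.20 and 0.25, and the wild-type share is above the Mfp2KO share on each of the 19 chromosomes.

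Medians of smaller stretches of the genome spread more widely, but rest on fewer regions, where chromosomes had 436 to 1389 shared regions each. Medians of few regions vary more, and the part of this in the wider spread was not tested. Of 403 windows of 5 Mb with at least 10 shared regions, 29 had a median centred log2 ratio of -1 or below and 2 of 1 or above. This split holds for centred ratios only and was not counted under the other scalings. The lowest was 15 to 20 Mb on chromosome 3, at -2.21 over 14 regions, with 64.8 kb called in wild type and 27.4 kb in Mfp2KO. The window from 95 to 100 Mb on chromosome 5 was at -1.89 over 19 regions, and 105 to 110 Mb on chromosome 1 was at -1.86 over 24. The tag sums, which are not centred, were 3209.9 in wild type and 2785.89 in Mfp2KO in the first of these windows, and 4635.9 and 5269.95, higher in Mfp2KO, in the third. The best filled of the 6 lowest windows, 95 to 100 Mb on chromosome 10, was at -1.57 over 46 regions, of which the middle 50% lay between -2.23 and -0.35.

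At the other end, the windows from 10 to 15 Mb on chromosome 2 (18 regions) and from 90 to 95 Mb on chromosome 7 (10 regions) were both at 1.04. The first 5 Mb of chromosome 19 were at 0.90 over 40 regions, with 10155.4 tags in wild type and 19075.6 in Mfp2KO at called lengths of 127 and 123 kb. Over the 403 windows the median ratio had a Spearman coefficient of 0.65 with the median density of the window's shared regions and -0.16 with its input ratio. This density is again the geometric mean of both genotypes and shares the Mfp2KO tags with the ratio, so the coefficient of 0.65 is no separate finding. Input per kb relative to the median window lay between -0.46 and 0.67 on the log2 scale.

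Neighbouring shared regions resembled each other weakly. The Spearman coefficient of the centred ratios of adjacent regions was 0.27 for 4333 pairs at most 10 kb apart, 0.18 for 6181 pairs 10 to 50 kb apart and 0.11 for 3771 pairs 50 to 200 kb apart. After the median of each region's density group was subtracted the values were 0.16, 0.09 and 0.07. These describe regions of the same libraries, which are not independent of each other.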

How the data were processed

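H3K27ac ChIP-seq peak lists of wild-type and Mfp2KO RAW264.7 cells were analysed, 1 ChIP and 1 input library each. The submitters' processing notes name build mm39 and HOMER 5.1, MACS3 3.0.3, Picard 3.4.0, SAMtools 1.23, BWA 0.7.19-r1273 and fastp 1.0.1. Their roles and the handling of duplicate reads are not given in the sources used here. Per the file headers, HOMER was run in histone style on each ChIP library with its own input and without pooling, on windows of 500 bp with a minimum of 10 tags in both lists. Also per the file headers, the authors kept regions at least 4-fold over input with a p-value of at most 0.0001. The deposited normalized tag count is a signal scaled by the authors to 10 M tags per library, and the deposited input tags are a signal as counted. Fold over input is the authors' deposited ratio per peak and was used only to describe and filter. The findPeaks score, deposited by the authors, was used only to rank peaks in 1 alternative.

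Peaks on chromosomes 1 to 19 that overlapped by at least 1 bp were merged. Tags and called length (end minus start) were summed per genotype and region, and tags per kb is the ratio of these sums. Where a region held several peaks of a genotype, its enrichment over input is the highest among them. Log2 ratios of Mfp2KO to wild type were taken, for tags also after subtraction of the median shared region. Intervals of tag ratios are 95% exact Clopper-Pearson intervals from tags scaled back to the library, and shares have 95% Wilson intervals. Both cover counting error only. At 15.8 M ChIP tags per library 1 tag was worth 0.633 to 0.634 in the normalized unit, so a region with few normalized tags rests on few sequenced tags. Because the lists were called separately, tag sums move with called length, and a difference in fragment length or in tags within peaks is not corrected by scaling to depth. No replicate exists and no test was run. Merging and ratios were tested on simulated data. Computations used Python 3.11.15, pandas 2.3.3, numpy 2.4.6, scipy 1.17.1 and matplotlib 3.10.9.

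Named regions were the 12 highest and 12 lowest shared regions by centred ratio with a mean of at least 100 tags, the 10 with most tags in each genotype alone, the 8 that lost and the 8 that gained most called length, and the 8 with most tags. The first 5 of the first 2 kinds were always named, and the others as needed. The 6 highest and 6 lowest regions of like length and the densest regions were added after the data were seen. The regions and lists were chosen with earlier results of these data known. Gene lists and promoters were not analysed here, since no annotation of mm39 was used. Alternatives varied the overlap, joining, list length, scaling, filters and density groups.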

Additional observations from a re-analysis of the deposited data

Results flagged for a closer look

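Signal was also found outside chromosomes 1 to 19, in peaks that the comparison does not use. On the unplaced contig chrUn_MU069435v1 the highest enrichment over input was 8.17-fold in wild type and 8.93-fold in Mfp2KO, in 2 peaks each with 15052.2 and 27284.6 tags and 2786 and 3995.5 input tags. On chrUn_JH584304v1 it was 9.70-fold in wild type and 15.92-fold in Mfp2KO, in 1 peak each with 4484.7 and 9134.9 tags and 687 and 735.5 input tags. These sums exceed those of any region named on chromosomes 1 to 19.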

How the results depend on the processing

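The direction of the median tag ratio, called length and density over the shared regions was the same under each alternative for which these medians were computed. Scaling to the tags in peaks was not among them. Its shift of 0.56 is larger than the median log2 tag ratio of 0.42, so on that scale the median tag ratio lies below 0. Counts moved with list length, scaling and filter. Fewer regions entered under some of these alternatives, and the cause of the moves was not tested. With an overlap of at least 50% of the shorter peak the median log2 called length was -0.35 and the density ratio of the sparsest of 5 groups -0.30, against -0.26 as reported. Joining peaks within 1 kb gave -0.21 for the latter. Joining within 10 kb left 3681 regions in wild type only and 1893 in Mfp2KO only, with 1838 higher and 2517 lower, median log2 ratios of 0.52 in tags, -0.36 in length and 0.78 in density, and -0.14 in the sparsest group.

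Lists limited to peaks at least 6-fold over input gave 7514 regions in wild type only, 1548 higher and 2490 lower, with 0.47 in tags, -0.37 in length, 0.77 in density and -0.42 in the sparsest group. The 15000 highest-scoring peaks of each list gave 7350 shared and 7439 wild-type-only regions, 1316 higher and 1650 lower, with 0.57, -0.25, 0.73 and -0.14 for the same 4 medians. The 15000 peaks with most tags gave 3029 regions in wild type only and 2513 in Mfp2KO only, 1606 higher and 2120 lower, with 0.59, -0.32, 0.87 and -0.15. A minimum of 20 tags in both genotypes gave 2015 higher and 2688 lower, with 0.55, -0.32, 0.80 and -0.23. Without centring 5020 were higher, and with a 1.5-fold limit 4987 were.

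Of the alternatives chosen after seeing the data, 2 reversed the sparse end. Among regions of like length, centred on their own median, 639 were higher and 646 lower, with 0.82 in tags, -0.10 in length and 0.89 in density, and the density ratio was 0.0552 in the sparsest and 0.95 in the densest of 5 groups. Groups from wild-type density alone gave 0.12 and 0.77, and groups from Mfp2KO density alone -0.42 and 1.36. Without called lengths of 500 bp the medians were 0.48 in tags and 0.71 in density. Among the named regions, the one on chromosome 4 (132700873-132704407) reversed, to -0.26, when peaks within 10 kb were joined. Under the alternatives 65 other values of named regions moved and 255 did not. A region that was not shared under an alternative had no value there. With an overlap of at least 50% of the shorter peak, this held for the region with the highest ratio, on chromosome 7 (3156781-3160839).

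No paired analysis was possible because each genotype has 1 library and the labels carry no replicate numbers. Leaving out a replicate and the alternatives for gene promoters were not run. Depth limits the sparse regions most: where the called peak holds few tags, as in the highest ratio, the counting interval is wide (4.49 to 6.27 at a ratio of 5.31).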
